A study of Bos taurus with 12 samples.

Results

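Heat shock proteins and DNAJ cochaperones were followed over 4 groups of endometrium of Simmental heifers. Every probe set on the GeneChip Bovine Genome Array whose gene symbol starts with DNAJ, HSPA, HSPB, HSPD, HSPE, HSPH or HSP90 was taken, which gave 74 of the 24016 probe sets and 47 of the 9155 genes that the platform annotation names. Brush samples of the endometrium came from day 3 or day 7, one cycle before the cycle in which an embryo was transferred, and heifers were classed afterwards by pregnancy as highly receptive (HR) or of low receptivity (LR). The groups HR3, LR3, HR7 and LR7 each held 3 pools, and each of the 12 arrays measured the RNA of 1 pool of 5 brush samples. All heifers were cyclic and synchronized, and none received a further treatment in the sources used here. Pooling hides the spread between heifers, so that p-values measure the spread between pools only, and whether the same heifers were brushed at both days is not stated.

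Chaperones bind unfolded protein chains and help them to fold, to cross membranes or to be degraded. HSP70 proteins (HSPA genes) do this by cycles of ATP hydrolysis, and DNAJ proteins, also called HSP40, deliver clients to them and speed up that cycle. HSP90 acts on proteins that are nearly folded, such as steroid receptors and kinases, while small heat shock proteins (HSPB genes) hold unfolded chains without ATP. The cytosol, the mitochondria and the endoplasmic reticulum each have their own set, and the reticulum set is induced by the unfolded protein response when secretory load increases, as in a gland that starts to secrete. The endometrium of the early luteal phase comes under the influence of progesterone and prepares histotroph, the secretion that feeds the embryo before implantation.

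The deposited values are log2 PLIER signals, and a difference between groups is a difference of log2 means. Only probe sets that varied enough and were bright enough were tested: a standard deviation (SD) of 0.2 or more across the 12 arrays, and at least 1 group in which every signal exceeded its array median. This left 7339 probe sets, of which 26 for 21 genes belonged to the chaperones. Another 25 chaperone probe sets lay above the median but varied too little, and 23 did not lie above it in any whole group, so that 51 probe sets for 37 genes were above the median. Of the 26 tested probe sets, 22 were above the median in all 4 groups, and those of DNAJC12, DNAJC9, DNAJA3 and HSPBP1 only in some. Counts over the tested probe sets therefore describe the more variable members, and counts without the SD limit are given as well. Array medians lay between 6.63 and 6.77.

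From day 3 to day 7, averaged over HR and LR, 20 of the 26 tested chaperone probe sets passed at an adjusted p under 0.05 in limma, 12 with higher and 8 with lower signal at day 7. Of all tested probe sets 65.9% passed in this comparison, so a share of 76.9% among the chaperones lies near the background. The median log2 difference of the 26 was 0.215, against -0.0833 over all 7339, but over the 51 chaperone probe sets above the median it was 0.0017, against -0.035 over all 12277. Without the SD limit 24 of 51 passed, which is 47.1% against 46.4% of all probe sets above the median, with 13 higher and 11 lower (of all 21.5% and 24.9%). When each array was centred on its median, the split of the 20 calls was 13 higher and 7 lower. All 6 pools of day 7 lay on one side of all 6 pools of day 3 for 8 of the 26, as they did for 34% of all tested probe sets. With a filter on the mean over all 12 arrays, which does not depend on the groups, 19 of 26 passed, 11 higher and 8 lower. The calls were then counted by compartment, where 31.1% of all tested probe sets were higher at day 7 and 34.8% lower. In the endoplasmic reticulum 6 of 8 tested probe sets rose, 2 of them of HSPA5, and 1 fell. The same numbers stood without the SD limit among 14. Among 7 probe sets of cytosolic and nuclear HSP70 and HSP90 proteins 2 rose, both of HSPA1A, and 3 fell, 2 of them of HSP90AA1. Without the SD limit 3 rose, all of HSPA1A, and 4 fell of 14. Among probe sets of cytosolic, vesicular and nuclear DNAJ proteins 2 rose and 2 fell of 6, and without the limit 2 rose and 4 fell of 12. Both tested mitochondrial probe sets rose, of which DNAJA3 only just passed, and these were 2 of the 7 above the median, and 1 of 2 tested small heat shock probe sets fell, or 1 of 3 above the median. Whether the compartments differ from each other was not tested.

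**Figure D1:**
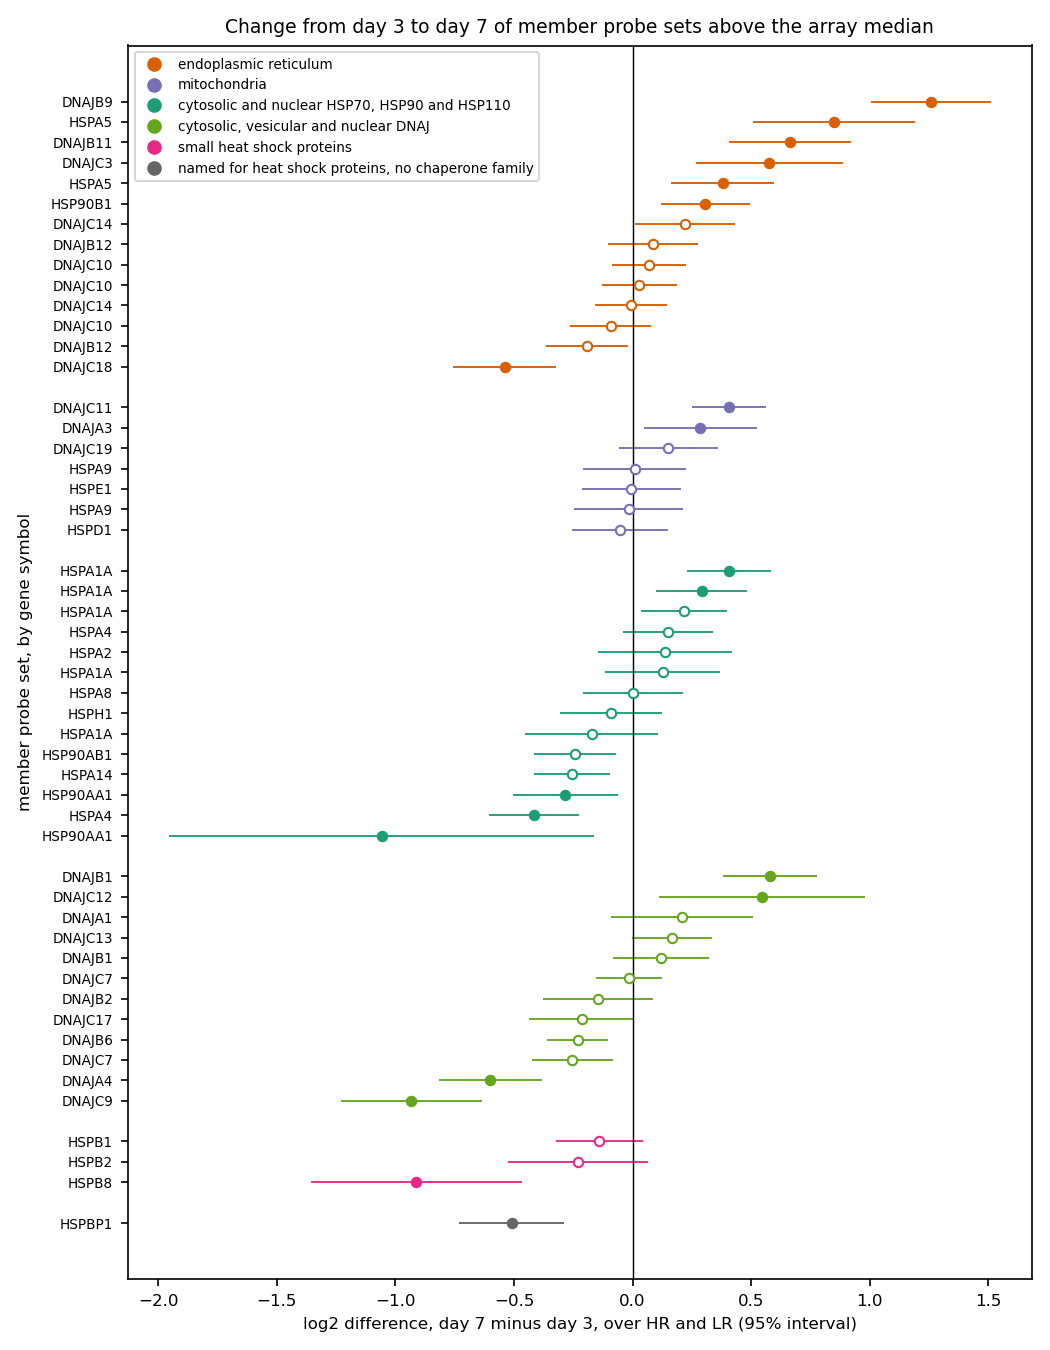
Log2 difference of day 7 minus day 3, averaged over HR and LR, for the 51 chaperone probe sets above the array median (vertical axis, by gene symbol and coloured by compartment). Bars are 95% intervals from the limma fit without the SD limit, and filled points passed in the fit with it. The endoplasmic reticulum points at the top reach 1.26 (DNAJB9), while HSPB8 and DNAJC9 lie at -0.91 and -0.93. The lowest point is the second HSP90AA1 probe set at -1.06, which did not pass without the SD limit (limma, adjusted p = 0.053).

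In the endoplasmic reticulum the strongest change was that of DNAJB9, also called ERdj4, a cochaperone that delivers misfolded proteins for degradation and holds the stress sensor IRE1 inactive. The DNAJB9 signals were 8.66, 8.73 and 8.69 for HR3, 8.43, 8.79 and 8.64 for LR3, 10.18, 10.11 and 9.62 for HR7, and 9.97, 10.02 and 9.59 for LR7. All 6 pools of day 7 lay above all 6 pools of day 3. The difference was 1.26 ± 0.12 (standard error), a 2.39-fold increase (limma, adjusted p = 1.31e-05). It was 1.28 in HR and 1.24 in LR, and it passed in both under all alternatives tried.

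HSPA5 (BiP, GRP78) is the HSP70 of the reticulum lumen and the main sensor and effector of its folding load. Its probe set with the highest mean signal read 12.52, 12.72 and 12.60 for HR3, 12.55, 12.88 and 12.62 for LR3, 13.33, 13.13 and 12.82 for HR7, and 13.09, 12.95 and 12.85 for LR7. HR7 lay above HR3 without overlap, while 1 LR3 pool lay within the range of LR7. The difference between the days was 0.38 ± 0.11, or 1.30-fold (limma, adjusted p = 0.00998). The second HSPA5 probe set read 9.45, 9.92 and 9.62 for HR3, 8.84, 9.81 and 9.32 for LR3, 10.47, 10.36 and 10.24 for HR7, and 10.60, 10.31 and 10.09 for LR7. Here the days did not overlap, and the difference was 0.85 ± 0.16 (limma, adjusted p = 0.000913). The third probe set of HSPA5 lay below the array median in every group and was not tested.

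HSP90B1 (GRP94) is the HSP90 of the reticulum and folds integrins and Toll-like receptors. It read 11.76, 12.22 and 12.15 for HR3, 11.89, 11.93 and 11.92 for LR3, 12.37, 12.39 and 12.19 for HR7, and 12.30, 12.17 and 12.29 for LR7. The LR days were separate, but 1 HR3 pool reached the lowest HR7 pool. HSP90B1 was 1.24-fold higher at day 7, with a difference of 0.31 ± 0.10 (limma, adjusted p = 0.017). This call and that of the first HSPA5 probe set were lost under quantile normalization, where the differences were 0.17 for HSP90B1 (adjusted p = 0.11) and 0.24 for HSPA5 (adjusted p = 0.0602).

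DNAJB11 (ERdj3) is a cochaperone of HSPA5 that binds nascent secretory chains. The DNAJB11 signals were 6.74, 7.11 and 6.81 for HR3, 7.20, 7.58 and 7.12 for LR3, 7.81, 7.97 and 7.56 for HR7, and 7.87, 7.85 and 7.48 for LR7. The HR3 pools were the lowest of all 12, and the HR days were separate, whereas LR3 and LR7 overlapped. Over both receptivity groups DNAJB11 rose by 0.66 ± 0.13, or 1.58-fold (limma, adjusted p = 0.000951). It rose by 0.89 in HR (adjusted p = 0.00308), and the difference of 0.43 in LR did not pass (adjusted p = 0.0644). The difference between these changes was 0.46 ± 0.25 and did not pass either (limma, adjusted p = 1).

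DNAJC3 (p58IPK), a lumenal cochaperone of HSPA5 and inhibitor of the stress kinase PERK, rose by 0.58 ± 0.15 (limma, adjusted p = 0.00519). Its 3 HR3 pools read 8.66 to 8.93 and its 3 HR7 pools 9.28 to 9.52, while 1 LR3 pool stood at 9.32 and lay within the LR7 range of 9.12 to 9.56. DNAJC18, a DNAJ protein of the reticulum membrane, was the 1 member of this compartment that fell. It read between 8.12 and 8.28 in the pools of day 3 and between 7.46 and 7.98 in those of day 7, without overlap, and the difference was -0.54 ± 0.11 (limma, adjusted p = 0.00142). The remaining tested probe set, the second of DNAJC14, differed by 0.22 ± 0.11 and did not pass (adjusted p = 0.0848). Another DNAJC14 probe set, all 3 of DNAJC10, the reductase ERdj5, and both of DNAJB12 above the median varied by less than the SD limit, with differences from -0.19 to 0.09.

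**Figure D2:**
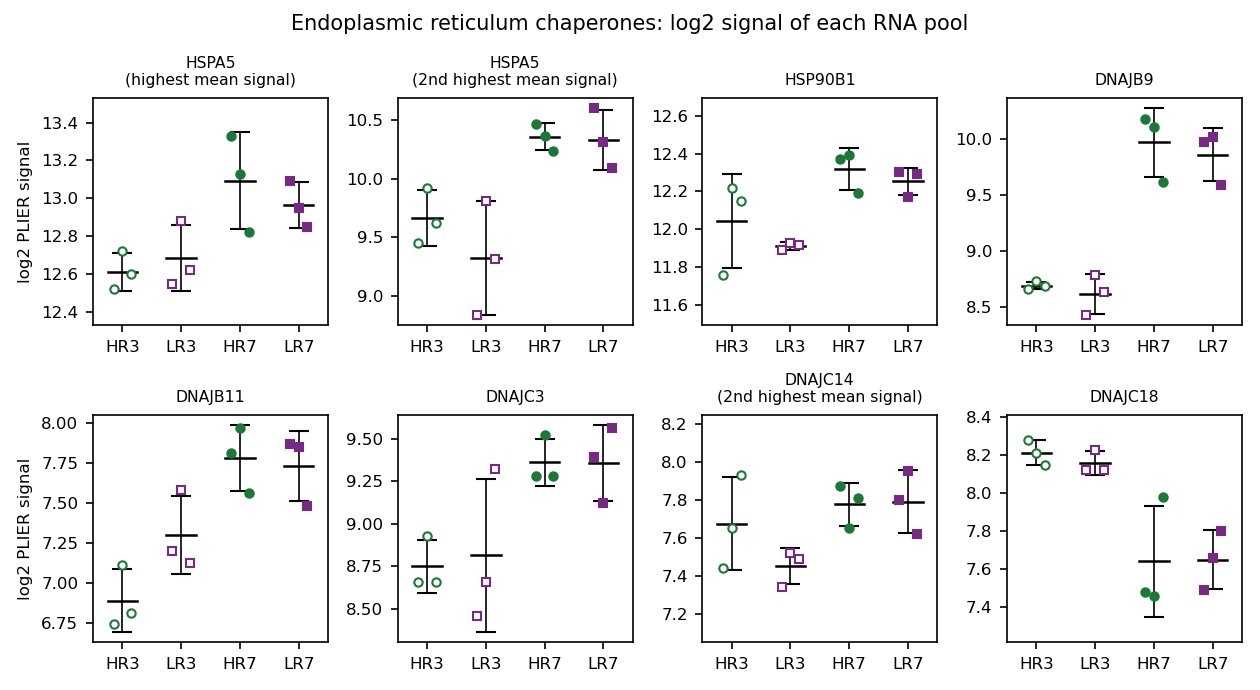
Log2 PLIER signal of the 8 tested endoplasmic reticulum probe sets in every pool (green circles HR, purple squares LR; open day 3, filled day 7), with the group mean and SD. DNAJB9 and the second probe set of HSPA5 show all day 7 pools above all day 3 pools, DNAJC18 shows the opposite order, and the first probe set of HSPA5, HSP90B1, DNAJB11, DNAJC3 and DNAJC14 overlap between the days.

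The partners of these chaperones were counted from a list of reticulum foldases, translocon subunits and unfolded protein response genes. Of 21 such genes on the array 15 were tested, and 12 rose and 2 fell from day 3 to day 7, where 31.1% of all tested probe sets rose and 34.8% fell. Without the SD limit 13 of the 21 rose and 2 fell. The median difference of the 15 tested genes was 0.60. ERO1A, the oxidase that regenerates protein disulfide isomerase, rose by 2.73 (limma, adjusted p = 2.66e-05). The lectin chaperones CALR and CANX rose by 1.01 and 0.85 (adjusted p = 0.00287 and 0.000105), and the cofactors SDF2L1 and CRELD2 by 1.25 each (adjusted p = 2.85e-05 and 0.000201). HYOU1, a large HSP70 relative that exchanges nucleotide on HSPA5, rose by 0.67 (adjusted p = 0.00106). SIL1, the other nucleotide exchange factor of HSPA5, fell by 0.39 (adjusted p = 0.00338), as did DDIT3 (CHOP), a transcription factor of prolonged reticulum stress, also by 0.39 (adjusted p = 0.0256). ATF4 and SEL1L were under the SD limit. The list was chosen with earlier results of these arrays known and is no independent evidence of direction.

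In the cytosol calls in both directions were found. HSP90AA1, the inducible cytosolic HSP90, was lower at day 7 by both of its probe sets. The first, with the higher mean signal, read 12.56, 13.02 and 13.04 for HR3, 12.54, 12.86 and 12.51 for LR3, 12.49, 12.50 and 12.41 for HR7, and 12.59, 12.47 and 12.37 for LR7. HR7 lay below HR3, whereas the LR days overlapped. The difference was -0.28 ± 0.11 (limma, adjusted p = 0.0402). The second HSP90AA1 probe set read 10.11, 10.66 and 10.98 for HR3, 10.96, 10.72 and 10.54 for LR3, 8.14, 9.85 and 10.25 for HR7, and 9.78, 8.64 and 10.96 for LR7. Its day 7 pools were widely spread, with an SD of 1.12 in HR7 and 1.16 in LR7, and the difference was -1.06 ± 0.40 (limma, adjusted p = 0.0353). Both calls were weak: omission of any of 8 single pools ended the first (adjusted p up to 0.0954) and of any of 7 the second (adjusted p up to 0.0823), with omitted pools from all 4 groups. HSP90AB1, the constitutive cytosolic HSP90, varied by less than the SD limit, and its difference was -0.24 with a 95% interval from -0.42 to -0.07 (limma without the SD limit, adjusted p = 0.0254).

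HSPA1A, the stress-inducible HSP70, is represented by 6 probe sets that disagree. The third by mean signal read 10.41, 10.33 and 10.12 for HR3, 10.49, 10.40 and 10.21 for LR3, 10.78, 10.87 and 10.65 for HR7, and 10.74, 10.78 and 10.58 for LR7. All pools of day 7 were above those of day 3, by 0.41 ± 0.10 (limma, adjusted p = 0.00324). The next by mean signal rose by 0.29 ± 0.10 (limma, adjusted p = 0.0225), a call that ended without HR7 replicate 3 (0.27, adjusted p = 0.0549) or LR7 replicate 3 (0.24, adjusted p = 0.0512). The fifth differed by -0.17 and did not pass (adjusted p = 0.271). The brightest pair, listed under an older gene record of HSPA1A, was under the SD limit, and in the test without it the second of the pair passed at 0.22 (limma, adjusted p = 0.0487) and the first, at 0.13, did not (adjusted p = 0.369). The remaining one was below the array median. The mean of the 3 tested HSPA1A probe sets gave 0.18 and did not pass (adjusted p = 0.0913). HSPA1A has a near-identical neighbouring copy in mammals, and the probes may not tell such copies apart.

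HSPA8, the constitutive HSP70 of the cytosol (HSC70), varied by less than the SD limit. It read 12.68, 13.01 and 13.03 for HR3, 12.72, 13.03 and 12.71 for LR3, 12.94, 12.86 and 12.75 for HR7, and 13.04, 12.91 and 12.69 for LR7. All 4 groups overlapped, and the 95% interval of the difference ran from -0.21 to 0.21 on the log2 scale. HSPH1 (HSP110), which exchanges nucleotide on HSP70, differed by -0.09 with an interval from -0.31 to 0.13. HSPA4 (APG-2), a relative with the same role, fell by 0.41 ± 0.10 by its brighter probe set (limma, adjusted p = 0.00371). That probe set read 10.19, 10.44 and 10.32 for HR3, 9.95, 10.41 and 10.25 for LR3, 9.75, 9.66 and 9.85 for HR7, and 9.99, 9.89 and 9.93 for LR7, so that the HR days were separate and the LR days overlapped. The second HSPA4 probe set differed by 0.15, with an interval from -0.04 to 0.34. HSPA14, a ribosome-bound HSP70, was under the SD limit and fell by 0.26 in the test without it (limma, adjusted p = 0.0141).

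HSPA2, an HSP70 best known from the testis, showed no passing difference between the days. Its signals were 8.55, 8.36 and 8.38 for HR3, 8.01, 8.54 and 8.24 for LR3, 8.27, 8.32 and 8.17 for HR7, and 9.16, 8.55 and 8.44 for LR7. LR7 held the highest value, and the difference between the days was 0.14 ± 0.14 (limma, adjusted p = 0.377).

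Among the cytosolic and nuclear DNAJ proteins, DNAJC9, which also chaperones histones, had the largest difference. Its signals were 7.45, 7.90 and 7.92 for HR3, 7.31, 8.12 and 7.47 for LR3, 6.73, 6.73 and 6.71 for HR7, and 6.85, 6.67 and 6.88 for LR7. All day 7 pools lay below all day 3 pools and close to the array medians. The fall was 0.93 ± 0.14 (limma, adjusted p = 0.000231). DNAJC9 entered the test only through the day 3 groups, where it is high, and with the filter on the mean over all arrays it passed as well (adjusted p = 0.000235). Its day 7 signals did not all exceed the array median, so that the size of the fall depends on values near that level. DNAJA4, a membrane-anchored partner of HSP70 linked to cholesterol synthesis, read 8.85, 9.04 and 8.61 for HR3, 8.85, 8.85 and 8.95 for LR3, 7.79, 8.08 and 8.31 for HR7, and 8.50, 8.40 and 8.47 for LR7. The days were separate here too, with HR7 the lowest group, and DNAJA4 fell by 0.60 ± 0.11, or 1.52-fold (limma, adjusted p = 0.000755).

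DNAJB1 (HSP40), the main stress-inducible partner of HSPA1A, gave different results with its 2 probe sets. The first, with the higher mean signal, read 9.38, 9.81 and 9.60 for HR3, 8.92, 9.20 and 9.22 for LR3, 9.58, 9.36 and 9.58 for HR7, and 9.34, 9.46 and 9.53 for LR7. LR3 was the lowest group and the other groups overlapped, so that the difference between the days was 0.12 ± 0.10 (limma, adjusted p = 0.319). The second DNAJB1 probe set read 8.22, 8.51 and 8.47 for HR3, 7.96, 8.24 and 8.13 for LR3, 8.89, 8.78 and 9.19 for HR7, and 8.73, 8.77 and 8.65 for LR7. By this one all pools of day 7 exceeded those of day 3, by 0.58 ± 0.10 (limma, adjusted p = 0.000617). DNAJC12, linked to the folding of aromatic amino acid hydroxylases, read 6.23, 6.49 and 6.74 for HR3, 7.05, 6.81 and 7.28 for LR3, 6.70, 8.07 and 7.49 for HR7, and 7.35, 7.28 and 6.99 for LR7. It was 0.55 ± 0.20 higher at day 7 (limma, adjusted p = 0.0302), but the groups of the 2 days overlapped. Omission of any of 8 single pools ended the call, with adjusted p up to 0.0712. DNAJC12 entered the test through the LR groups only, and its HR3 mean of 6.49 lay below the array medians. Because HR3 lay that low, the size of the rise depends on values near background. The change was 0.93 in HR and 0.16 in LR, and the interaction did not pass. DNAJA1, the major housekeeping DNAJ of the cytosol, differed by 0.21 ± 0.14 and did not pass (adjusted p = 0.212). Without the SD limit DNAJB6 and 1 of 2 DNAJC7 probe sets fell by 0.23 and 0.25 (limma, adjusted p = 0.00798 and 0.0196).

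Of 19 cytosolic partners of HSP70 and HSP90 on the array 6 were tested, of which 3 rose and none fell, where 31.1% of all tested probe sets rose and 34.8% fell. Without the SD limit 4 of 17 rose and 2 fell. Those that rose with the limit were BAG3, a nucleotide exchange factor that couples HSP70 to autophagy (1.03, limma adjusted p = 4.07e-05), CHORDC1, an HSP90 cochaperone (0.87, adjusted p = 6.61e-05), and BAG5 (0.41, adjusted p = 0.00269). Without the SD limit the HSP90 cochaperones AHSA1 and PPID fell by 0.29 and 0.30 (adjusted p = 0.00637 and 0.00794), while STIP1, CDC37, PTGES3 and FKBP4 did not pass. None of the 4 tested subunits of the chaperonin CCT passed, and without the SD limit CCT4 fell by 0.25 (adjusted p = 0.0131). The heat shock factors that drive the cytosolic response varied by less than the SD limit. HSF1 differed by -0.14 (limma without the SD limit, adjusted p = 0.127) and HSF2 by -0.23 (adjusted p = 0.0285), and HSF4 lay below the array median.

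Among the small heat shock proteins HSPB8 (HSP22), which works with BAG3 in the removal of aggregates, fell most. It read 8.55, 9.57 and 8.77 for HR3, 8.97, 8.48 and 8.90 for LR3, 7.09, 7.28 and 8.08 for HR7, and 8.63, 8.39 and 8.30 for LR7. Each HR7 pool lay below each other pool, while LR7 overlapped with LR3. Over both receptivity groups the difference was -0.91 ± 0.20 (limma, adjusted p = 0.00257). In HR it was -1.48, a 2.79-fold decrease (adjusted p = 0.00279), and in LR -0.34 (adjusted p = 0.33). The smaller fall in LR cannot be called different from that in HR, because the interaction did not pass. HSPB2, a muscle-type member that lies next to CRYAB in the RefSeq annotation of the ARS-UCD2.0 assembly, differed by -0.23 ± 0.14 (adjusted p = 0.167), and CRYAB by -0.07 (adjusted p = 0.742). HSPB1 (HSP27) read between 12.33 and 12.78 on all 12 arrays, with a difference of -0.14 and a 95% interval from -0.32 to 0.04. HSPB3 and HSPB6 lay below the array median in all groups.

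HSPBP1, which removes nucleotide from cytosolic HSP70 and is not itself a heat shock protein, was lower at day 7. It read between 7.17 and 7.63 at day 3 and between 6.51 and 7.02 at day 7, without overlap, and the difference was -0.51 ± 0.11 (limma, adjusted p = 0.00227). It too entered the test only through the day 3 groups, with day 7 means of 6.75 in HR and 6.85 in LR near the array medians, and passed with the filter on the mean over all arrays (adjusted p = 0.00231). HSPBAP1 lay below the array median in all groups.

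**Figure D3:**
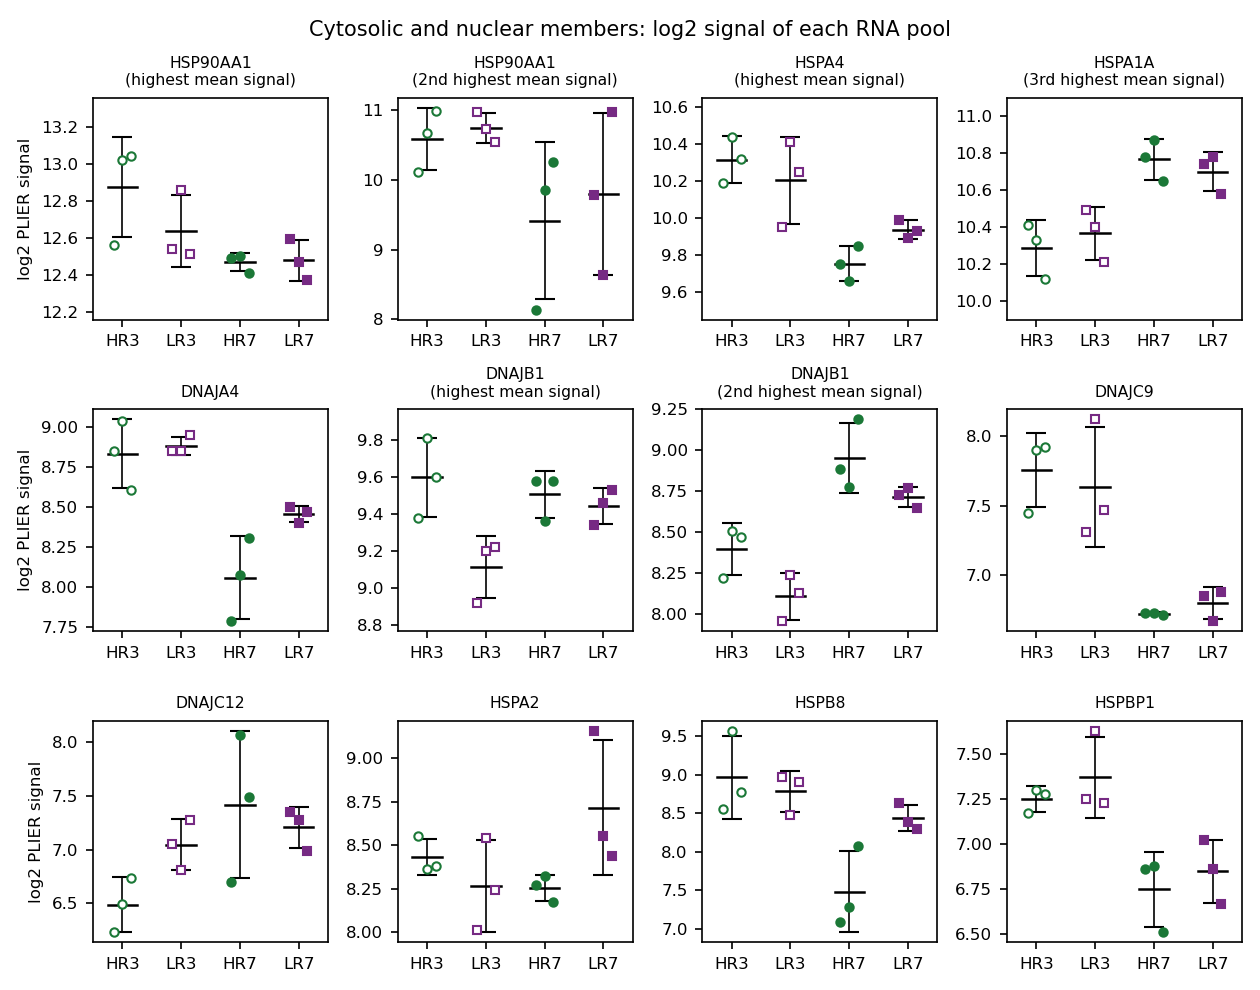
Log2 PLIER signal of 12 cytosolic and nuclear probe sets in every pool (green circles HR, purple squares LR; open day 3, filled day 7), with the group mean and SD. The third probe set of HSPA1A and the second of DNAJB1 lie higher in all day 7 pools, DNAJA4, DNAJC9 and HSPBP1 lower, and HSPB8 is lowest in the 3 HR7 pools.

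In the mitochondria the main folding machines gave no call. HSPD1 (HSP60) and its lid HSPE1 (HSP10), which are neighbours in the RefSeq annotation and form the mitochondrial chaperonin, varied by less than the SD limit. HSPD1 read 12.29, 12.37 and 12.53 for HR3, 12.34, 12.66 and 12.22 for LR3, 12.34, 12.36 and 12.20 for HR7, and 12.51, 12.47 and 12.21 for LR7. The groups overlapped, and the 95% interval of the difference between the days ran from -0.26 to 0.15. For HSPE1 it ran from -0.21 to 0.20. HSPA9 (mortalin), the HSP70 that pulls proteins into the matrix, had intervals from -0.25 to 0.21 and from -0.21 to 0.23 with its 2 probe sets. DNAJC19, a subunit of the import motor, differed by 0.15, with an interval from -0.06 to 0.36.

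Calls were made for a pair of mitochondrial DNAJ proteins. DNAJC11, a protein of the complex that shapes the cristae, read 8.78, 8.76 and 8.80 for HR3, 8.89, 9.03 and 8.83 for LR3, 9.16, 9.23 and 9.02 for HR7, and 9.43, 9.47 and 9.22 for LR7. Within HR and within LR the days were separate, and the difference was 0.41 ± 0.09 (limma, adjusted p = 0.002). DNAJA3 (TID1), the partner of HSPA9 in the matrix, read 6.55, 6.90 and 6.84 for HR3, 6.49, 6.88 and 6.59 for LR3, 7.25, 6.75 and 7.00 for HR7, and 7.15, 6.93 and 6.89 for LR7. These values lay near the array medians and those of HR overlapped, and the difference of 0.29 ± 0.12 only just passed (limma, adjusted p = 0.0498). DNAJA3 entered the test only through the day 7 groups, where it is higher, and with the filter on the mean over all arrays it did not pass (adjusted p = 0.0503). Omission of any of 10 single pools also ended this call, with adjusted p up to 0.123. None of the 5 mitochondrial partners on the array, the nucleotide exchange factors GRPEL1 and GRPEL2, the HSP90 relative TRAP1, CLPP and TIMM44, reached the SD limit.

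**Figure D4:**
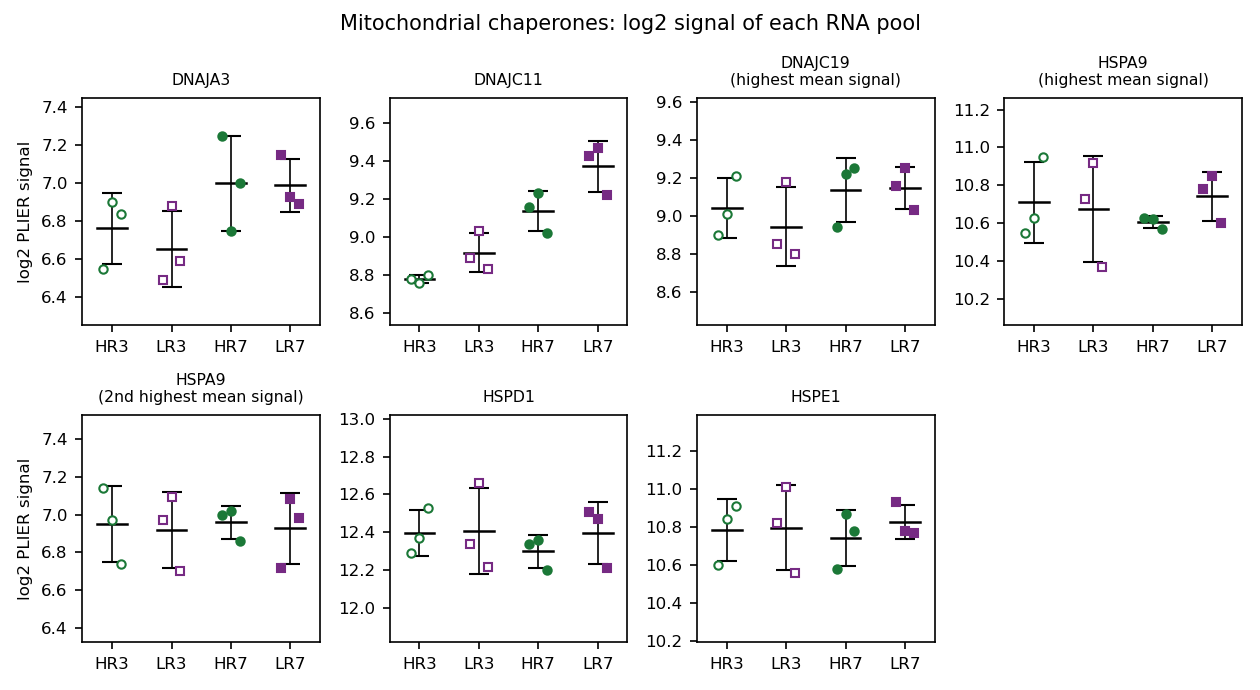
Log2 PLIER signal of the 7 mitochondrial probe sets above the array median in every pool (green circles HR, purple squares LR; open day 3, filled day 7), with the group mean and SD. DNAJC11 is higher at day 7 in both receptivity groups, and the groups of HSPD1, HSPE1, HSPA9 and DNAJC19 overlap.

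Within each receptivity group the days were compared again, and 15 of the 26 probe sets passed between the days in HR, 9 higher and 6 lower, where 41.5% of all tested probe sets passed (20.7% higher and 20.8% lower). In LR 8 passed, 4 higher and 4 lower, where 44.7% of all passed (22.7% higher and 22% lower). Without the SD limit 16 of 51 passed in HR and 8 of 51 in LR, where 26.4% and 28% of all passed. The count in HR was 8 without HR7 replicate 2, with 3 higher, and 9 without HR3 replicate 3, with 4 higher. Without HR3 replicate 1 or HR7 replicate 1 it was 11 and 10, with 4 and 5 higher. In LR 7 were higher and 1 lower without LR3 replicate 2, and 4 higher and 2 lower without LR7 replicate 1. At an unadjusted p under 0.05 there were 17 in HR and 16 in LR (53.1% and 55.7% of all), and the comparison of the changes gave no passing probe set, so that the lower count in LR does not show a smaller change. With each array centred on its median, 10 passed in LR, 7 higher and 3 lower. DNAJB9 and DNAJC9 passed in both receptivity groups with every alternative and with every pool left out. For DNAJB9 the change in HR was 0.04 larger than in LR (interaction, 95% interval from -0.47 to 0.54).

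Between HR and LR no chaperone probe set passed at either day. At day 3 none of the 26 passed in limma, as none of all 7339 did (0%), and 2 had an unadjusted p under 0.05, where 7.06% of all tested probe sets did. An ordinary linear model without moderation gave none after adjustment and 3 at an unadjusted p under 0.05. The groups HR3 and LR3 were separate for 5 probe sets, where 10.7% of all were. At day 7 none passed, where 0.0681% of all did, and 3 had an unadjusted p under 0.05 (4.51% of all) in limma and 4 in the ordinary model. HR7 and LR7 were separate for 6 probe sets, where 8.94% of all were. Over both days none passed in limma, where 0.0409% of all did, with 2 at an unadjusted p under 0.05 (7.04% of all) and 3 in the ordinary model.

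At day 3 the lowest p belonged to both DNAJB1 probe sets and to DNAJB11. DNAJB1 was higher in HR3, by 0.48 ± 0.15 with its first probe set (limma, adjusted p = 0.668), where the 3 HR3 pools lay above the 3 LR3 pools. It was higher by 0.29 ± 0.15 with the second, where 1 HR3 pool lay below the highest LR3 pool (limma, adjusted p = 0.691). DNAJB11 was lower in HR3 by 0.41 ± 0.18, without overlap (limma, adjusted p = 0.678). At day 7 DNAJB11 differed by 0.05, with a 95% interval from -0.32 to 0.41. The first probe set of DNAJB1 and that of DNAJB11 were the 2 with an unadjusted p under 0.05, and none of these differences holds after adjustment.

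At day 7 the lowest p belonged to HSPB8, DNAJA4 and HSPA2, all lower in HR7 and without overlap with LR7. HSPB8 was lower by 0.96 ± 0.29, or 1.94-fold (limma, adjusted p = 0.574). DNAJA4 was lower by 0.40 ± 0.16 (limma, adjusted p = 0.9) and HSPA2 by 0.46 ± 0.19 (adjusted p = 0.997). HSPB8 and HSPA2 also had the lowest p for the interaction of receptivity and day, at -1.14 ± 0.41 and -0.63 ± 0.27, followed by the first probe set of DNAJB1 at -0.42 ± 0.21 (limma, adjusted p = 1 for each). Of all tested probe sets 3.9% had an unadjusted p under 0.05 for the interaction, and of the 26 there were 2 in limma and 1 in the ordinary model.

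**Figure D5:**
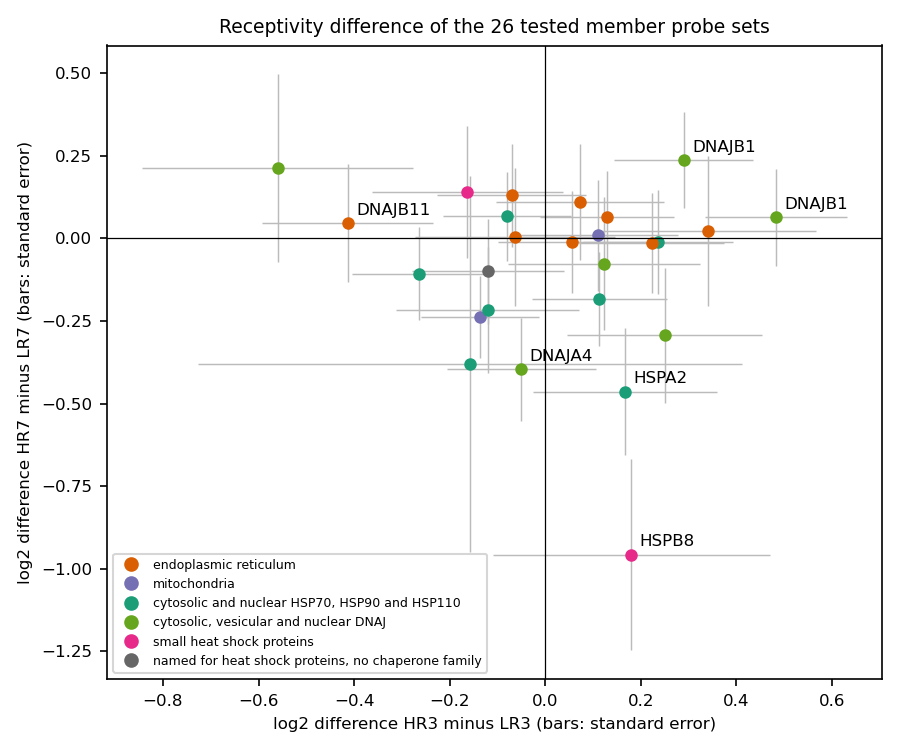
Log2 difference HR minus LR at day 3 (horizontal axis) and day 7 (vertical axis) for the 26 tested chaperone probe sets, coloured by compartment, with standard errors as bars. Labels mark the probe sets with the 3 lowest p at day 3, at day 7 or in the interaction; HSPB8 stands lowest at day 7 at -0.96, and no point passed the adjusted threshold.

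For the reticulum chaperones the 95% intervals of the receptivity difference varied in width. That of DNAJB9 ran from -0.29 to 0.43 at day 3 and from -0.25 to 0.47 at day 7. The first HSPA5 probe set had intervals from -0.38 to 0.24 and from -0.18 to 0.44, and HSP90B1 from -0.14 to 0.40 and from -0.20 to 0.33. Those of the second HSPA5 probe set were wider, from -0.14 to 0.82 at day 3 and from -0.46 to 0.51 at day 7, as were those of DNAJC3, from -0.50 to 0.37 and from -0.43 to 0.44. For DNAJB11 the interval at day 3 ran from -0.78 to -0.05, before any adjustment for the number of tests. None of the 15 tested reticulum partners passed at day 3 or day 7, where 0% and 0.0681% of all tested probe sets did. Where 7.06% of all had an unadjusted p under 0.05 at day 3, 3 of the 15 did. These were CALR and EIF2AK3, the kinase PERK, which were 0.84 and 0.61 higher in HR3, and SDF2L1, which was 0.52 lower in HR3 (limma, adjusted p = 0.668 for each). The mitochondrial HSPD1 had intervals from -0.30 to 0.28 at day 3 and from -0.38 to 0.19 at day 7.

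Brush samples hold several cell types, and in such bulk RNA fewer cells of a type and less RNA per cell cannot be told apart. From day 3 to day 7 all 3 neutrophil markers on the array rose, and their summed linear signal went from 308 to 445 in HR3 and 446 to 945 in LR3 to 6630 to 12700 in HR7 and 3516 to 5810 in LR7. Averaged over HR and LR, all 4 ciliated cell markers on the array and 6 of 7 tested T and NK cell markers fell. Of 10 tested stromal markers 4 fell, near the share of all tested probe sets, of which 34.8% fell and 31.1% rose. The 4 ciliated markers passed in HR and none of them in LR, where 20.8% and 22% of all tested probe sets fell. Their median differences were -1.39 and -0.48, and none of the 4 passed for the interaction. Of 4 tested markers of squamous epithelium 3 rose and 1 fell. The summed signal of all 7 squamous markers on the array was 4266 to 5400 in HR7 against 1589 to 1739 in LR7. This sum includes 3 markers at or below the array median on every array. Of the 4 tested squamous markers 1 passed as higher in HR7 than in LR7, where 0.0681% of all tested probe sets passed. Over both days 1 of the 4 passed as higher in HR, where 0.0409% of all passed. The HR7 and LR7 ranges were also separate for the neutrophil markers. None of these 3 passed, and all 3 had an unadjusted p under 0.05 in limma, where 4.51% of all did. Ciliated markers were 1103 to 1707 in HR7 and 1478 to 2171 in LR7. All 10 tested stromal markers had positive differences of HR minus LR at day 3, as had 3803 of all 7339 tested probe sets, and none passed. Of the uterine epithelial markers 11 of 12 lay above the array median on at least 1 array, and KRT8 did not, while the 5 red blood cell markers and 7 of 8 endothelial markers did not. The part of these cell types in the chaperone differences was not tested.

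Controls of target preparation also moved with the day in LR. The difference between the 5' and 3' probe sets of the spiked control dap was -3.13 to -2.66 in LR3 and -1.88 to -1.47 in LR7, and -2.74 to -1.32 in HR3 and -2.30 to -1.77 in HR7. The controls did not move alike. The difference of the endogenous actin transcript went the other way, from -0.62 to 0.55 in LR3 and from -1.53 to -0.62 in LR7, while that of ef1a was 0.24 to 0.82 in LR3 and 0.98 to 1.42 in LR7. The second thr pair was higher in LR7 without overlap, and gapd, lys, phe and the first thr pair overlapped between LR3 and LR7. In LR the dap values of day 3 and day 7 did not overlap, so that a covariate cannot cleanly part dap from day there. With the dap difference as a covariate, 14 of 26 chaperone probe sets passed between the days over both receptivity groups, 16 in HR and 2 in LR. The difference of DNAJB9 passed then too, while the probe sets of HSP90B1 (0.18, adjusted p = 0.18), the first of HSPA5 (0.33, adjusted p = 0.0678), the fourth of HSPA1A (0.27, adjusted p = 0.102), DNAJC12 (0.29, adjusted p = 0.301), DNAJA3 (0.19, adjusted p = 0.286) and the second of HSP90AA1 (-1.31, adjusted p = 0.0552) did not.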

How the data were processed

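The authors hybridized each of 12 RNA pools to a GeneChip Bovine Genome Array, scanned with GCOS 1.1.1 and global scaling, and made log2 PLIER signals in Expression Console. These deposited log2 values were used as they stand, and present calls were not used here. Arrays were grouped by their labels. Of 24128 entries 112 controls were left out. The platform annotation gave 13292 probe sets 1 symbol, 86 several and 10638 none, and 72 of the 74 chaperone probe sets matched a current RefSeq gene with the same symbol. Of the 74, matched or not, 8 carry a suffix for probes shared between transcripts. No probe set is listed under DNAJC15.

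Probe sets were kept at an SD of at least 0.2 over the 12 arrays and above the array median on every array of at least 1 group. Differences were estimated in limma 3.58.1 (R 4.3.3) from a model with the 4 group means as coefficients and with moderated variances. Adjustment followed Benjamini and Hochberg over the 7339 probe sets of each comparison, with a threshold of 0.05. Intervals are 95% intervals from the same fit without the SD limit. The model and its tests were tested on simulated data. Python 3.11.15 with pandas 2.3.3 made the tables. The number of arrays limits the precision.

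Values per pool are given for HSPA5, HSP90B1, DNAJB9 and DNAJB11, for the 3 largest passing differences between the days in each compartment, for the 3 lowest p in each comparison of HR and LR and in the interaction, and for the chaperones that the study names, together with HSPA8, HSPD1 and the second probe sets of a gene. Probe sets of 1 gene are numbered by their mean signal, and each listed partner gene is represented by its first. Members, compartments and lists were chosen with earlier results of these data known. Deviations of pools with the same number correlated above 0.1 in all 3 pairs of LR3 with LR7 (0.198, 0.211 and 0.463) and of HR7 with LR7 (0.136, 0.147 and 0.445). In the other pairs of groups only single values exceeded 0.1, for HR3 with HR7 (0.118) and LR3 with HR7 (0.19). Correlations between pools with different numbers were not computed, and nothing in the labels says what a number shares. The number therefore entered only an alternative, as a block, and other alternatives changed the filters, the scaling, the variance model, the arrays in the fit and the covariates, and left out each pool in turn.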

Additional observations from a re-analysis of the deposited data

How the results depend on the processing

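Differences were followed under each alternative where they had passed, or had one of the 3 lowest p between HR and LR at day 3, at day 7 or in the interaction, and none of these reversed its sign. Other differences were not followed, and averaging the tested probe sets of a gene joined opposite signs, as for the fifth of HSPA1A (-0.17, with a mean of 0.18). Counts of chaperone probe sets that passed moved by over 1.5 times in a few cases. Without the condition on the array median 9 passed between the days in HR. In LR 5 passed with the compared groups alone in the fit, 2 with the dap control as a covariate and 14 in the ordinary linear model at an unadjusted p under 0.05. That model gave 3 at day 3, 4 at day 7, 3 over both days and 1 for the interaction at an unadjusted p, where adjusted tests gave 0. Leaving out each pool in turn gave 16 to 19 probe sets between the days over both receptivity groups, 8 to 16 in HR, 6 to 10 in LR and 0 for every comparison of HR with LR and for the interaction. With the pool number as a replicate block 19, 15 and 9 passed between the days over both, in HR and in LR, and 0 elsewhere. Among the named chaperones the block ended the calls of DNAJA3 over both receptivity groups (0.29, adjusted p = 0.0727) and of DNAJA4 in LR (-0.43, adjusted p = 0.0596) and no other. With 3 pools a group, the differences between HR and LR have standard errors of 0.12 to 0.57, so that small differences were not detectable. Signals of different probe sets were not compared as levels, and values near the array median carry more background than bright ones.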
